A study of Homo sapiens with 4 samples.

Results

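The 9 genes described here belong to the retinoic acid pathway or stand next to it. They are the binding protein gene *CRABP2*, the enzyme genes *ALDH1A3* and *DHRS3*, the receptor genes *RARA*, *RARB*, *RARG* and *RXRA*, and *NR2F1* and *NR2F2*, which encode the orphan receptors COUP-TFI and COUP-TFII. They are 9 of the 63677 genes in the count files, and each was found by the Ensembl identifier that carries its symbol. The set was chosen by function but with the measured values of this comparison known, *CRABP2* and *NR2F1* for their difference between the lines, so the fold changes of the 9 genes are a description. Their intervals show the error of the fit, and no p-value is read from them. How many passed the threshold used for all genes is given only as a count. The ranks of *CRABP2* and *NR2F1* by size of the change are likewise only a description. FLO-1 is an established cell line of human esophageal adenocarcinoma (EAC). FLO-1LM is a subline that was grown from a liver metastasis after FLO-1 cells had been passaged through NSG mice, which lack a functional adaptive immune system. RNAseq was available for 2 FLO-1LM and 2 FLO-1 parental libraries. All cells were taken at 80% confluency and 24 hours after new medium, and neither line carried a genetic change or drug treatment named in the labels. FLO-1LM is 1 subline, so the comparison is between these 2 populations of cells, and it is not stated that a line's libraries were grown as separate cultures. P-values then measure only the spread between these libraries, which may be technical.

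Retinoic acid is made from vitamin A by oxidation of retinol to retinaldehyde and then to the acid. Retinaldehyde dehydrogenases such as ALDH1A3 perform the second step, DHRS3 turns retinaldehyde back into retinol, and CYP26 enzymes break the acid down. Inside the cell, CRABP2 binds retinoic acid and hands it to the retinoic acid receptors (RARs), which sit on DNA as pairs with a retinoid X receptor (RXR) and recruit corepressors without ligand and coactivators with it. The COUP-TFs bind to related DNA motifs, can compete for these sites and for RXR, and are themselves known to respond to retinoic acid in several cell types. In the esophagus and other epithelia the pathway is known for its part in steering differentiation.

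The DNA just upstream of the annotated start sites is shown for the genes that differed most between the lines. Windows of 250 bases before each RefSeq start site were placed on the GRCh37 genome by exact match, which placed 18 of the 19 windows of the 9 genes and not 1 of *DHRS3*. From the windows printed here, bases that GENCODE counts as an exon of the same gene were left out. For *CRABP2* this left chr1:156675609-156675826 on the minus strand, and for *NR2F1* chr5:92918678-92918927 on the plus strand. Capitals mark the hexamer AGGTCA and its variants on either strand, which are AGTTCA and also GGGTCA together with GGTTCA, the half-sites that RAR, RXR and COUP-TF proteins can recognize. The sequences are written 5′ to 3′ on the strand of the gene.
CRABP2: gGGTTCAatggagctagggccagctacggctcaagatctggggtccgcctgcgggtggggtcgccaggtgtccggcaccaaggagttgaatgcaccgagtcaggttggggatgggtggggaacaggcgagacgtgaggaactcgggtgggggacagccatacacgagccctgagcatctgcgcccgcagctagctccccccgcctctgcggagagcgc
NR2F1: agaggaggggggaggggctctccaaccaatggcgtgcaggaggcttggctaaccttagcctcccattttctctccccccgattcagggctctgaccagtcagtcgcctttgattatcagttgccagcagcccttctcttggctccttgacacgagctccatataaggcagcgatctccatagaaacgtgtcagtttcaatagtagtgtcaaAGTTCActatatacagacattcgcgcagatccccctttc

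Each of these windows held 1 half-site, at bases −249 to −244 for *CRABP2* and −39 to −34 for *NR2F1*, counted back from the start site. Counts of motifs were made over all 250 bases, exons included. Over the 9 genes, 11 of 19 windows (57.9%) held a half-site, or 10 of the 18 placed windows (55.6%), against 33.8% of all 35116 RefSeq windows of this length. Several windows belong to the same gene, so they are not independent. Some lie inside the annotated gene, before a start site within it. Among those with a half-site these include chr15:96875544-96875793 of *NR2F2* and chr5:92922555-92922804 of *NR2F1*. Direct repeats of the half-site with 1, 2 or 5 bases between them, the arrangements known for retinoid response elements, were searched in the same letters on both strands. Among the 19 windows 1 such repeat was found, with a spacer of 5 bases, in the window of a *RARB* start site at chr3:25469701-25469717 on the plus strand. A repeat with this spacer was present in 26 of all 35116 windows (0.074%). The repeat lies at bases −53 to −37 of that start site and within 3 annotated exons of *RARB* transcripts that begin further upstream. It is shown because *RARB* is a textbook target of the pathway through an element of this kind, with its 2 half-sites in capitals.
RARB: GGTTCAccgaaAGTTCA

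A matched motif is a description of letters and not of binding, and no binding data were analysed here.

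Total counts per library were 19060310 to 25920336, and 17143 genes passed the filter on low counts. In the edgeR quasi-likelihood test of the 2 FLO-1LM against the 2 parental libraries, 382 genes (2.23%) had an adjusted p below 0.05. Of these, 313 (1.83%) were lower and 69 (0.402%) higher in FLO-1LM. Of the 12536 protein-coding genes tested, 149 were among the lower and 58 among the higher, and all 9 described genes are protein-coding. Genes with at least 1 count numbered 21152 and 21304 in the FLO-1LM libraries and 23104 and 22908 in the parental libraries. Levels are given as CPM, read counts brought to one library size by TMM scaling, and fold changes as log2 of FLO-1LM over parental. The epithelial markers *KRT8*, *KRT18*, *KRT19* and *CDH1* were present, *EPCAM* had 3 to 12 counts per library, and the mesenchymal marker *VIM* was among the abundant genes while *CDH2* was at 0. The summed CPM of the 7 epithelial markers, most of it *KRT8* and *KRT18*, was 490 to 506 in FLO-1LM and 864 to 875 in parental cells. Of the 6 tested, 5 were called, all lower. The other, *CLDN7*, was not called and had a log2 fold change of 0.48 (SE 0.59). *EPCAM* was not tested, and its levels overlapped between the lines. The 5 mesenchymal markers summed to 1655 to 1830 and 1631 to 1664, nearly all of it *VIM*. The 8 stromal and blood markers analysed summed to 11.1 to 13.3 and 10.1 to 12.8, nearly all of it *COL1A1*. Reads were mapped to the human genome, so these sums are not a measure of mouse cells. Counts were high enough to test 3 of the 5 mesenchymal and 1 of the 8 stromal and blood markers (*COL1A1*). Of those 4 genes, 0 were called by edgeR, DESeq2 or limma voom and 0 had an unadjusted edgeR p below 0.05. The part of the epithelial shift in the differences given here was not tested. In bulk RNA, fewer cells that express a gene and less RNA per cell cannot be told apart.

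*CRABP2*, the carrier that delivers retinoic acid to its receptors, was lower in FLO-1LM. The gene lies on chromosome 1 at chr1:156669398-156675608, minus strand (GRCh37). It had 192 and 194 counts in FLO-1LM and 395 and 355 in parental cells, or 8.62 and 7.54 CPM against 17.9 and 18.5 CPM. Both FLO-1LM libraries lay below 9 CPM and both parental libraries above 17, so the lines did not overlap and the gap was wide against the spread within a line. The log2 fold change was −1.17 (SE 0.17, 95% interval −1.52 to −0.82), a 2.26-fold lower level. By size of the change *CRABP2* stood 187th among the 313 genes called lower, and 36th among the 149 of these that are protein-coding.

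*NR2F1*, which encodes the nuclear receptor COUP-TFI, differed by a like amount in the other direction. It lies at chr5:92918928-92930317, plus strand. It had 628 and 676 counts in FLO-1LM and 288 and 231 in parental cells, or 28.2 and 26.3 CPM against 13.1 and 12.0 CPM. Both FLO-1LM libraries were above both parental libraries, and the libraries of a line lay within 2 CPM of each other. The log2 fold change was 1.11 (SE 0.14, 95% interval 0.82 to 1.40), 2.16-fold higher in FLO-1LM, and it stood 11th by size among the 69 genes called higher.

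*NR2F2*, which encodes the close relative COUP-TFII (chr15:96869167-96883492, plus strand), had overlapping levels in the lines. They were 183 and 156 CPM in FLO-1LM and 190 and 181 CPM in parental cells. The log2 fold change was −0.13 (SE 0.084, 95% interval −0.31 to 0.046). *NR2F2* was the more abundant of the pair in every library. Per length, the level of *NR2F2* was 9.83 and 10.2 times that of *NR2F1* in the parental libraries and 4.40 and 4.01 times in the FLO-1LM libraries. No stretch of 50 bases is shared by the longest protein-coding transcripts of either gene with any other gene in the sense direction, so reads of this length would not be divided between them.

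**Figure D1:**
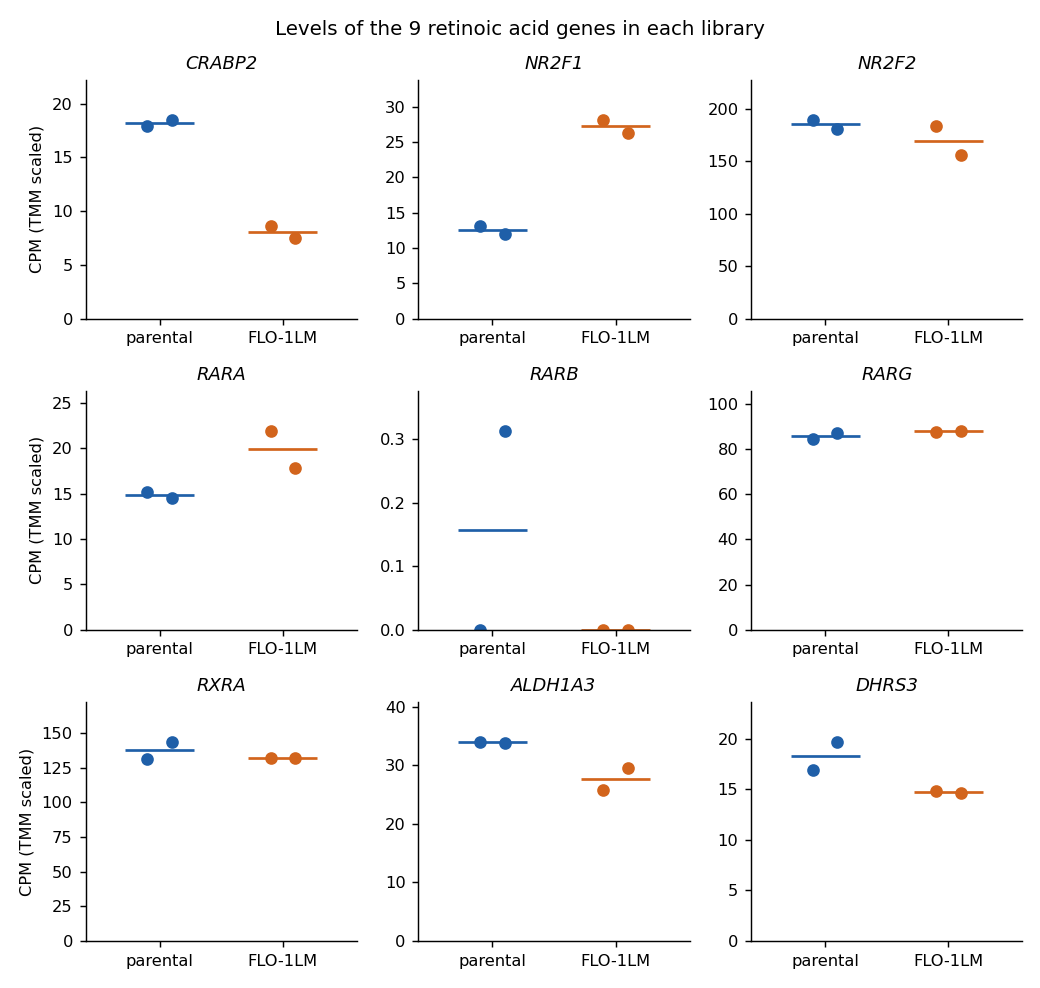
CPM after TMM scaling (vertical axis, from 0, a separate scale for each gene) of the 9 genes in the 2 FLO-1 parental libraries (blue points) and the 2 FLO-1LM libraries (orange points), with the mean of each line as a bar. *CRABP2* is at 8.62 and 7.54 CPM in FLO-1LM against 17.9 and 18.5 in parental cells and *NR2F1* at 28.2 and 26.3 against 13.1 and 12.0, while the points of *NR2F2*, *RARG* and *RXRA* lie close together across lines.

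Among the receptors, *RARA* (chr17:38465432-38513895, plus strand) was the one with the largest difference. RARA is the RAR that most tissues express. It was at 21.9 and 17.9 CPM in FLO-1LM and 15.2 and 14.5 CPM in parental cells, so both FLO-1LM libraries were higher, although they differed from each other by more than the nearest libraries of the lines did. The log2 fold change was 0.42 (SE 0.15, 95% interval 0.10 to 0.74).

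*RARG* (chr12:53604351-53626764, minus strand), the RAR best known from skin and other stratified epithelia, was nearly level. It was at 87.5 and 88.1 CPM in FLO-1LM and 84.2 and 87.0 CPM in parental cells, a log2 fold change of 0.036 (95% interval −0.14 to 0.21). Although the FLO-1LM libraries were both above the parental ones, the gap of the nearest libraries was smaller than the distance between the parental libraries.

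*RXRA* (chr9:137208944-137332431, plus strand), the shared partner of the RARs, was at 132 CPM in both FLO-1LM libraries and at 131 and 144 CPM in parental cells. The log2 fold change was −0.060 (95% interval −0.23 to 0.11), and the ranges overlapped.

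*RARB* (chr3:24729378-25639423, plus strand), the receptor that is itself induced by retinoic acid in many cells, was near absent. It had 0 counts in both FLO-1LM libraries, 0 in parental replicate 1 and 6 in parental replicate 2. A count of 0 allows a level of up to 0.117 to 0.136 CPM in these libraries (3 counts, counting error only). It did not pass the filter on low counts, and a difference was not detectable at this depth. The repeat printed above lies upstream of 1 of its start sites.

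The enzymes *ALDH1A3* and *DHRS3* were both somewhat lower in FLO-1LM. *ALDH1A3* (chr15:101417919-101456831, plus strand) was at 25.8 and 29.6 CPM against 34.0 and 33.8 CPM, a log2 fold change of −0.29 (SE 0.12, 95% interval −0.53 to −0.049). *DHRS3* (chr1:12627939-12678216, minus strand) was at 14.8 and 14.6 CPM against 17.0 and 19.7 CPM, a log2 fold change of −0.32 (SE 0.15, 95% interval −0.63 to −0.0011). In both genes the lines did not overlap, and the intervals came close to 0.

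Of the 8 genes that passed the filter on low counts, 6 had levels that did not overlap between the lines, 3 lower (*CRABP2*, *ALDH1A3* and *DHRS3*) and 3 higher (*NR2F1*, *RARA* and *RARG*) in FLO-1LM. The same was true of 7301 of the 17143 genes tested (42.6%). An adjusted p below 0.05 was reached by 1 gene in each direction (against 1.83% lower and 0.402% higher over all genes), the pair that was chosen for its difference, and nothing is read from that count. The median log2 fold change of the 8 was −0.095, against 0.0016 over all genes tested.

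Levels per length are RPKM, the CPM divided by the length in kilobases of all annotated exons of the gene. These exons may differ from those used for the counting. Averaged over the 4 libraries, *NR2F2* was highest at 27.4 RPKM, followed by *RARG* at 16.9, *CRABP2* at 12.2 and *RXRA* at 11.1. Then came *ALDH1A3* at 5.77, *DHRS3* at 4.70, *NR2F1* at 4.54 and *RARA* at 3.66, with *RARB* last at 0.0083. With this length *CRABP2* was beside *RARG* in parental cells, at 16.8 ± 0.39 against 16.7 ± 0.39 RPKM (SD, n = 2), and below *RXRA* in FLO-1LM, at 7.46 ± 0.71 against 10.9 ± 0.020 RPKM. Its place in parental cells, beside *RARG* and above *RXRA*, depended on the length. Dividing by the longest annotated transcript put *CRABP2* below *RARG* and *RXRA* in either line, at 17.6 against 29.4 and 23.8 RPKM in parental cells and at 7.82 against 30.1 and 22.8 RPKM in FLO-1LM. *NR2F1* was the lowest of the tested genes in parental cells with either length, at 2.87 ± 0.16 RPKM over all exons and 3.27 ± 0.19 RPKM over the longest transcript, next to *RARA* at 3.13 ± 0.10 and 4.53 ± 0.15. In FLO-1LM *NR2F1* was at 6.21 ± 0.31 RPKM over all exons, above *RARA* at 4.20 ± 0.61 and *DHRS3* at 4.19 ± 0.034, which did not differ beyond their spread. Over the longest transcript it was again above both, at 7.08 ± 0.36 against 6.08 ± 0.88 and 6.69 ± 0.054 RPKM. Its place against *ALDH1A3* in FLO-1LM turned with the length, from 6.21 against 5.19 ± 0.50 RPKM over all exons to 7.08 against 7.98 ± 0.76 RPKM over the longest transcript. Averaged over the 4 libraries, *RXRA* passed *CRABP2* and *RARA* passed *NR2F1* with the longest transcript as length.

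**Figure D2:**
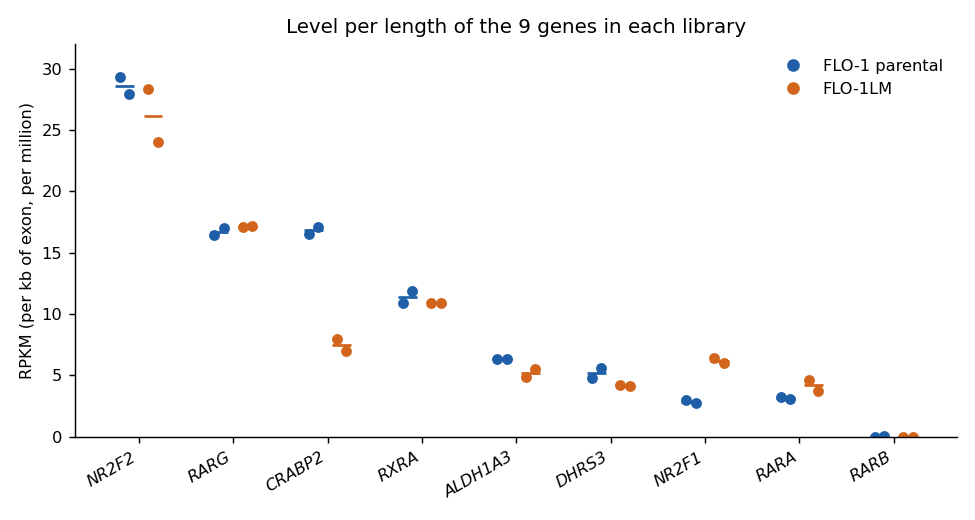
RPKM (vertical axis, linear from 0) of the 9 genes in each library, ordered by the mean over the 4 libraries, with parental libraries in blue, FLO-1LM libraries in orange and the mean of each line as a bar. *CRABP2* is at 16.8 RPKM in parental cells and 7.46 RPKM in FLO-1LM, and its place in parental cells beside *RARG* and above *RXRA* does not hold with the longest transcript as length. *NR2F1* is at 2.87 RPKM in parental cells and 6.21 RPKM in FLO-1LM.

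Of 51 further genes of the pathway, listed by function as carriers, enzymes, receptors and cofactors, 32 passed the filter on low counts and 10 had 0 counts in all libraries. These lists were also chosen with earlier results of these data known, so their counts and p-values are a description and not independent evidence. Of the 32 tested, 2 fell and 0 rose in the edgeR test, as in DESeq2 and limma voom, and the median log2 fold change was −0.020, against 0.0016 over all genes tested, of which 1.83% were called lower and 0.402% higher. The listed genes are all protein-coding, and of the 12536 protein-coding genes tested 149 were called lower and 58 higher. Of the 32, 4 were lower and 3 higher at an unadjusted edgeR p below 0.05. The genes that fell were *CYP26B1*, which acts on the breakdown of retinoic acid, and *NCOA3*, a coactivator.

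*CYP26B1* was at 24.2 and 20.7 CPM in FLO-1LM and 32.4 and 35.7 CPM in parental cells. It fell by 0.60 on the log2 scale (SE 0.12, edgeR adjusted p = 0.012), and the lines did not overlap. Its relative *CYP26A1*, a widely used reporter of retinoic acid activity, was at 7.05 and 6.14 CPM against 6.58 and 6.83 CPM. The log2 fold change of *CYP26A1* was −0.026 (95% interval −0.48 to 0.43, edgeR adjusted p = 0.98).

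*NCOA3* was at 126 and 127 CPM in FLO-1LM and 173 and 154 CPM in parental cells. It fell by 0.37 (SE 0.080, adjusted p = 0.017). The most abundant of the 13 cofactors was *PRAME*, a repressor of RAR signaling that many tumors express. *PRAME* was at 367 and 358 CPM in FLO-1LM and 365 and 376 CPM in parental cells, a log2 fold change of −0.031 (95% interval −0.18 to 0.12). *NRIP1*, a corepressor that binds liganded receptors, had the second largest difference among the cofactors, 0.25 (adjusted p = 0.29).

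Of the 23 other enzymes 11 were tested and *CYP26B1* was the one called. *ALDH1A1* had 0 counts in all libraries and *ALDH1A2* 1 count in 1 parental library, so among the retinaldehyde dehydrogenases of this family *ALDH1A3* supplied nearly all counts. The abundant *RETSAT*, a retinol saturase, was at 90.8 and 93.4 CPM against 93.1 and 97.4 CPM. *RDH11*, a retinal reductase, was at 65.3 and 56.5 CPM against 54.6 and 49.2 CPM, a log2 fold change of 0.23 (adjusted p = 0.35). *RDH5*, a retinol dehydrogenase best known from the eye, was near 1 CPM, with a log2 fold change of −0.47 (SE 0.58).

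Few of the other carriers had counts high enough to test, and sequence that they share with other genes was not examined. Of 9 listed, 3 had 0 counts in all libraries and 3 were tested, with 0 called by edgeR, DESeq2 or limma voom and 1 (*RBP7*) at an unadjusted edgeR p below 0.05. *RBP7*, a cellular retinol-binding protein gene, was at 10.6 and 12.6 CPM in FLO-1LM and 7.89 and 9.02 CPM in parental cells, a log2 fold change of 0.46 (adjusted p = 0.30). *RBP4*, the carrier of retinol in blood, was at 0.81 and 0.39 CPM against 0.77 and 0.31 CPM, a log2 fold change of 0.11 (SE 0.75). *CRABP1*, the relative of *CRABP2*, was under 1 CPM in all 4 libraries, with 18 and 1 counts in FLO-1LM and 8 and 9 in parental cells. *CRABP2* was thus the cellular retinoic acid-binding protein gene with nearly all the counts in both lines.

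The 5 other receptors tested had the narrowest range, with log2 fold changes of −0.047 to 0.035 and 0 called by edgeR, DESeq2 or limma voom, and 0 at an unadjusted edgeR p below 0.05. *RXRB*, the second RXR, was at 101 and 122 CPM against 112 and 118 CPM. *NR2F6*, the third gene of the COUP-TF family, was at 55.0 and 59.0 CPM against 59.1 and 58.7 CPM, a log2 fold change of −0.047 (95% interval −0.24 to 0.14). *RXRG* had 0 and 5 counts in FLO-1LM and 2 and 0 in parental cells and was not tested.

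**Figure D3:**
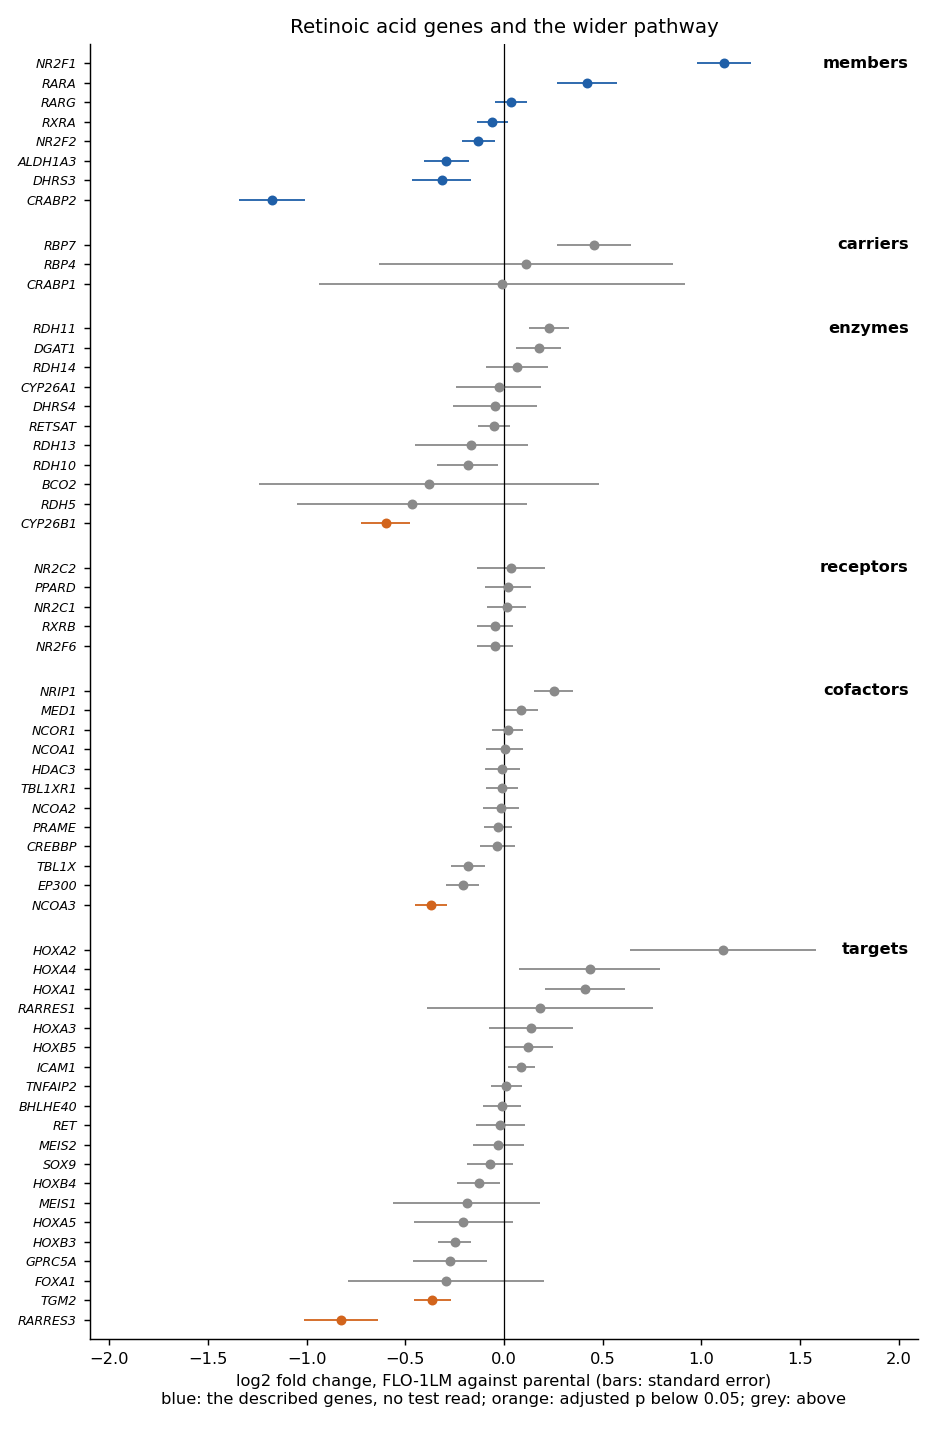
Log2 fold change of FLO-1LM over parental (horizontal axis, bars are the standard error) for tested genes, grouped as the described set (top, blue), carriers, enzymes, receptors, cofactors and retinoic acid targets, with genes past an edgeR adjusted p of 0.05 in orange and the others in grey. Outside the described set the 4 orange points, *CYP26B1*, *NCOA3*, *TGM2* and *RARRES3*, all lie left of 0, and the receptors lie between −0.047 and 0.035.

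Genes known to be induced by retinoic acid in some cell type were listed as targets, also with earlier results of these data known. Of 26 listed, 20 were tested, 2 fell and 0 rose by edgeR, with a median log2 fold change of −0.023. Over all genes tested, 1.83% were called lower and 0.402% higher. The targets are all protein-coding, and of the 12536 protein-coding genes tested 149 were called lower and 58 higher. DESeq2 and limma voom each called 1 lower and 0 higher, and 3 were lower and 1 higher at an unadjusted edgeR p below 0.05. *RARRES3* (also named *PLAAT4*), a retinoid-inducible phospholipase and acyltransferase gene, was at 8.98 and 8.20 CPM in FLO-1LM and 12.9 and 17.6 CPM in parental cells. It fell by 0.83 (SE 0.19, adjusted p = 0.022), and the parental libraries differed more from each other than those of FLO-1LM. *TGM2*, encoding tissue transglutaminase, was at 44.6 and 45.6 CPM against 57.3 and 58.6 CPM, and fell by 0.36 (SE 0.093, adjusted p = 0.048).

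The remaining 18 targets were not called. *HOXA2*, a homeobox gene of the 3′ end of its cluster, had the largest difference of the list, 2.51 and 1.71 CPM against 0.91 and 1.04 CPM, but its error was wide (log2 fold change 1.11, SE 0.47, adjusted p = 0.33). The most abundant targets were *ICAM1*, an adhesion molecule gene also induced by inflammatory signals, and *TNFAIP2*. *ICAM1* was at 356 and 347 CPM against 333 and 328 CPM, and *TNFAIP2* at 191 and 179 CPM against 191 and 175 CPM.

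Genes beside *CRABP2* and *NR2F1* on the chromosome were read in the same way. Within 500 kb of *CRABP2*, 22 other protein-coding genes were tested and 0 were called by edgeR, DESeq2 or limma voom (2 lower and 1 higher at an unadjusted edgeR p below 0.05), with 12 below and 10 above 0 and a median log2 fold change of −0.041. They ran from −0.51 (SE 0.41) for *NES* to 0.16 (SE 0.50) for *TSACC*, both at under 3 CPM. The start site of *NES* is at −28.4 kb in genome coordinates, which is downstream of *CRABP2*, a gene on the minus strand. Around *NR2F1* a single protein-coding gene was tested within 500 kb of its ends, *FAM172A*, with a log2 fold change of 0.11, not called.

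**Figure D4:**
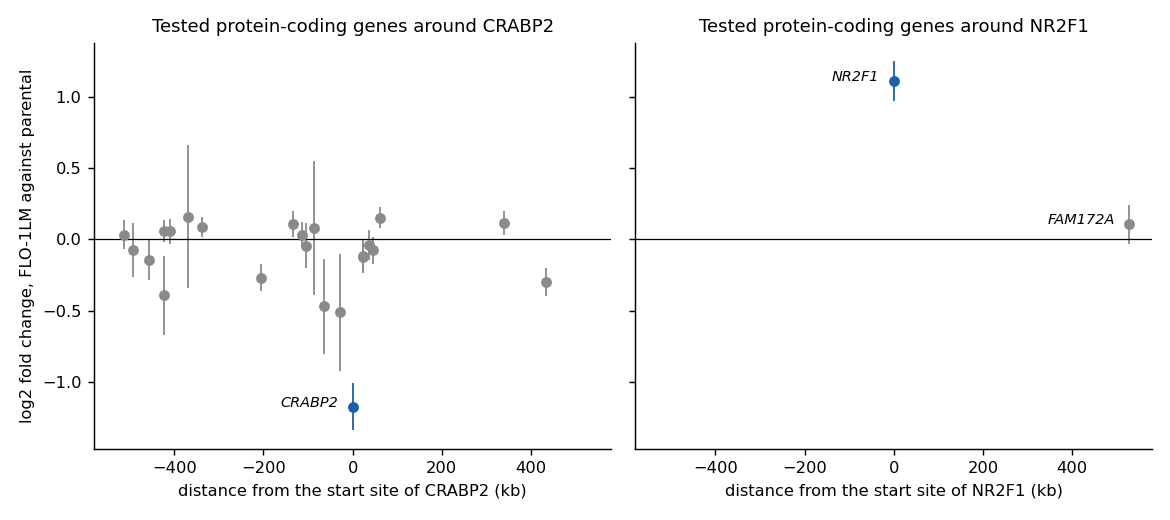
Log2 fold change of FLO-1LM over parental (vertical axis, bars are the standard error) for tested protein-coding genes against the distance of their start site from that of *CRABP2* (left) or *NR2F1* (right) in kb, with these 2 genes in blue and genes that were not called in grey. The 22 neighbours of *CRABP2* lie between −0.51 and 0.16, above *CRABP2* at −1.17, and the 1 neighbour of *NR2F1* is at 0.11. Distances follow genome coordinates, so negative values are on the downstream side of *CRABP2*, a gene on the minus strand.

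Several of the genes have a transcript annotated on the opposite strand. The kit kept strand, but the strand setting of the counting is not stated, so reads of such pairs may have been mixed. *ALDH1A3-AS1* had 151 and 212 counts in FLO-1LM and 181 and 161 in parental cells, and 43.3% of the 50-base stretches of the *ALDH1A3* transcript are present in it in the antisense direction. *ALDH1A3* itself had 575 and 761 against 750 and 648 counts, so its value is uncertain. For *NR2F1* the share was 2.93%, and *NR2F1-AS1* had 69 and 32 counts against 36 and 29, few beside the 628 and 676 of *NR2F1* in FLO-1LM. For *RARA* the share was larger, 6.08%, with an annotated gene other than *RARA-AS1*. *RARA-AS1* had 35 to 69 counts per library and *NR2F2-AS1* 18 to 26. The edgeR adjusted p of the 4 antisense genes named here was 0.79 to 0.97.

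Among 12536 tested protein-coding genes, those whose pattern over the 4 libraries was most like that of *CRABP2* were *RIPOR3*, *APOM* and *SPDYA*. Likeness is the Euclidean distance of log2 CPM centred on the mean of each gene, 0.11 for *RIPOR3* and 0.17 for *APOM* and *SPDYA*. *RIPOR3* was at 17.6 and 15.4 CPM in FLO-1LM and 40.0 and 38.0 CPM in parental cells, while *APOM* and *SPDYA* were at or below 2.63 CPM in every library. For *NR2F1*, *SYNE1* at 0.19 and *PLEKHH2* at 0.21 were among the 3 nearest. *SYNE1* was at 9.61 and 9.05 CPM against 4.04 and 4.49 CPM, and *PLEKHH2* was at or below 1.03 CPM in every library. With 4 libraries in 2 groups, many genes with a similar fold change come out near one another, and the distances rest on the same libraries as the fold changes.

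The fold changes of the described genes were recomputed under 12 alternatives of normalization, filter, test and libraries. That of *CRABP2* ran from −1.27 to −1.08 and that of *NR2F1* from 1.06 to 1.18. *RARA* stayed above 0, at 0.27 to 0.56, and *ALDH1A3* and *DHRS3* below it, at −0.39 to −0.20 and −0.42 to −0.20. *NR2F2* ranged from −0.25 to −0.016, *RARG* from 0.0055 to 0.061 and *RXRA* from −0.12 to 0.0047. The 4 calls of the wider lists were each lost without a parental library, settings in which all calls fell from 382 to 116 and 139, while the fold changes kept their sign. *CYP26B1* was at −0.67 without parental replicate 1 (adjusted p = 0.065) and −0.53 without replicate 2 (0.25). *NCOA3* was at −0.29 without parental replicate 1 (0.59), and *RARRES3* at −0.59 without parental replicate 2 (0.62). *TGM2*, the call nearest to the threshold, was called in 8 of 12 alternatives and was at −0.38 without parental replicate 1 (adjusted p = 0.49) and −0.35 without replicate 2 (0.54).

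**Figure D5:**
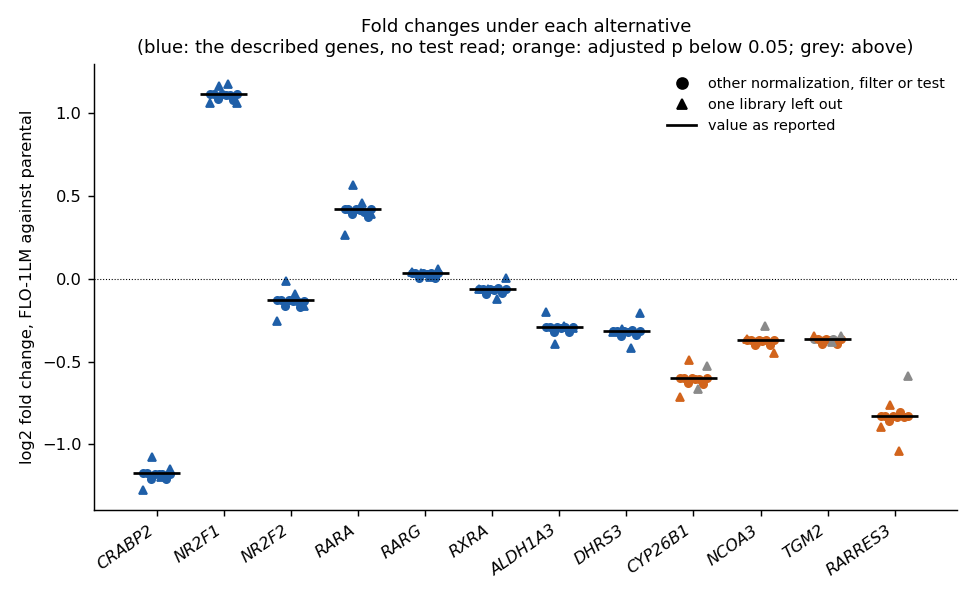
Log2 fold change of FLO-1LM over parental (vertical axis) of the 8 tested genes and of the 4 called pathway and target genes under 12 alternatives, with circles for another normalization, filter or test, triangles for 1 library left out and a bar for the value as reported. The described genes are blue, other genes orange where the adjusted p was below 0.05 and grey where it was not. *CRABP2* stays between −1.27 and −1.08 and *NR2F1* between 1.06 and 1.18, while grey triangles mark the calls of *CYP26B1*, *NCOA3*, *TGM2* and *RARRES3* that were lost without 1 library.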

How the data were processed

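Read counts per Ensembl gene were deposited by the authors, 1 file per library and without normalization. The authors extracted total RNA, made directional libraries, converted base calls with bcl2fastq 2.17, trimmed adapters with Trimmomatic 0.30 and mapped reads to GRCh37, as the methods and processing notes state. The aligner, counting program and strand setting are not given in the sources used here. Genes were filtered with filterByExpr of edgeR 4.0.16 (minimum count 10, minimum total 15), which left 17143 of 63677, scaled by TMM and tested with glmQLFit and glmQLFTest in R 4.3.3. P-values were adjusted by the Benjamini-Hochberg method over all genes tested and called below 0.05. The SE was obtained from the F statistic of each gene. Exon lengths, transcripts and positions come from GENCODE lifted to GRCh37, and upstream windows from RefSeq, whose table is on another build. The GENCODE release used here is not the gene annotation of the authors' counting, so lengths and shared stretches may not describe the gene models counted. Scripts were tested on simulated counts. Of the listed genes, 2 were not analysed here, and some genes that the rule names are not reported here.

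The 9 genes and all lists were chosen with earlier results of these data known. Named genes were the 9 genes, and in each list every gene called, the 2 with the highest mean CPM and the 2 with the largest fold change. Opposite-strand genes, called neighbours within 500 kb and the 3 genes nearest in pattern were added. *CYP26A1*, *CRABP1*, *ALDH1A1*, *ALDH1A2*, *RXRG*, *NES*, *TSACC*, *FAM172A* and the markers named fall outside this rule and were chosen after their values were seen. Alternatives were DESeq2 1.42.0, RLE factors, library totals only, no filter, at least 10 counts in every library, limma 3.58.1 voom with and without TMM factors, mitochondrial genes left out, each library left out, and the longest transcript as length.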

Additional observations from a re-analysis of the deposited data

How the results depend on the processing

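The number of genes called rose from 382 to 577 without a filter on low counts, and leaving out 1 library gave 116 to 1052 (1052 and 967 without FLO-1LM replicate 1 and 2, 116 and 139 without parental replicate 1 and 2). Of the described genes, *RARA* was at a log2 fold change of 0.56 and *ALDH1A3* at −0.39 without FLO-1LM replicate 2. The carrier, enzyme, receptor and cofactor list had 2 calls in each of the 8 other alternatives and 0 to 3 with a library left out. The target list had 1 call by DESeq2 (*TGM2* adjusted p = 0.076) and 1 by limma voom with TMM factors (*TGM2* adjusted p = 0.0503), and 0 to 4 with a library left out. *RXRA* ran from −0.12 to 0.0047 with a library left out, its sign turning without FLO-1 parental replicate 2. The cause of these shifts was not tested. The 2 FLO-1LM libraries differed more from each other than the 2 parental libraries did. The chi-square of their counts per degree of freedom was 9.66 against 4.59, and it was 11.3 to 14.3 between libraries of different lines. Leaving out a library leaves 1 in its line, which is then assumed to vary like the pair of the other line. No paired analysis was possible because the labels give no replicate numbers, and the numbers used here only follow the order of the samples. An exact permutation test of 1 gene has a smallest two-sided p of 0.333 in this design, and the edgeR p-values rest on spread shared across genes. The labels give no date or batch, and any batch confounded with the line cannot be told apart from it. Genes near 1 CPM had standard errors above 0.4 and changes of the size seen in *CYP26B1* were not detectable there.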
